A study of Mus musculus with 12 samples.

Results

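Resident macrophages flushed from the peritoneal cavity come out together with other cells, and 40 genes that mark those cells were examined here on every array. The genes stand for B cells (7), T cells (5), natural killer (NK) cells (3), mast cells and basophils (9), eosinophils (3), neutrophils and their precursors (5), dendritic cells (4) and mesothelial cells (4). A gene was measured by a probe set annotated with its symbol alone, and by the brightest on average where there were several. All 40 were found, among 19938 genes measured this way. The study compared peritoneal macrophages of female mice on Affymetrix whole-transcript arrays, 12 in all, with 3 in each of 4 groups. The groups were wild-type C57Bl/6 cells left untreated, wild-type cells given 1 µg/ml lipopolysaccharide (LPS) for 4 h, and Nfkbiz-/- (knockout) cells in the same conditions. Nfkbiz encodes IκBζ, a nuclear member of the IκB family that takes part in the second wave of the LPS response. The labels name neither the design of the Nfkbiz allele nor the age of the mice, and their shared protocol speaks of C57Bl/6 mice for both genotypes. Cells were plated and cultured briefly before treatment, and the labels describe no sort, gate or wash. Whether the replicates were separate mice is not stated, so each p-value rests on the spread between samples that may be technical repeats.

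By textbook knowledge, the serous fluid of the mouse peritoneum holds macrophages and B cells, many of them B-1 cells, with fewer T cells, mast cells, eosinophils and dendritic cells, over a lining of mesothelial cells. Connective tissue mast cells store histamine and a set of proteases, among them carboxypeptidase A3 and the chymases, in their granules and carry the receptors for IgE and stem cell factor. In RNA from a mixed sample, fewer cells of a type and less RNA per cell cannot be told apart.

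The cells carried the labelled type. The macrophage genes Lyz2, encoding lysozyme, and Csf1r, encoding the M-CSF receptor, ranged over the 12 arrays from 12270 to 16190 and from 5316 to 10130 intensity units. The Nfkbiz probe set read 406.3 to 462.6 in untreated and 3079 to 3786 in LPS-treated wild-type cells, against 266.9 to 285.6 and 1335 to 1634 in knockout cells, and where it lies relative to the deletion was not stated in the labels. The table holds no detection call, so the 95th percentile of 1194 olfactory and vomeronasal receptor genes on each array, between 89.1 and 113 intensity units, served as the background level. Both knockout arrays numbered 2 stood apart. Their receptor genes had the highest medians, 5.16 on the log2 scale on each, against 4.86 to 5.06 on the other 10 arrays, and they had the fewest genes above background, 11429 untreated and 11426 with LPS, against at least 11780 elsewhere. Differences that moved most with these arrays are given with and without them, an analysis added after the data were seen.

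By this measure 23 of the 40 markers (57.5%) exceeded background on all 3 arrays of at least 1 group, against 62.5% of all genes. They were all 7 B cell genes, all 4 dendritic cell genes, 6 of 9 mast cell and basophil genes, 2 of 5 T cell genes, 2 of 5 neutrophil genes and 2 of 4 mesothelial genes, with none of the NK cell and eosinophil genes. Over the 12 arrays, 17 markers were above background on every array and 12 on none. The markers also differed in how far they moved: the brightest array exceeded the dimmest by less than 1.5-fold for 15 markers and by 3-fold or more for 12. The heat map of the markers shows which ones those were.

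**Figure D1:**
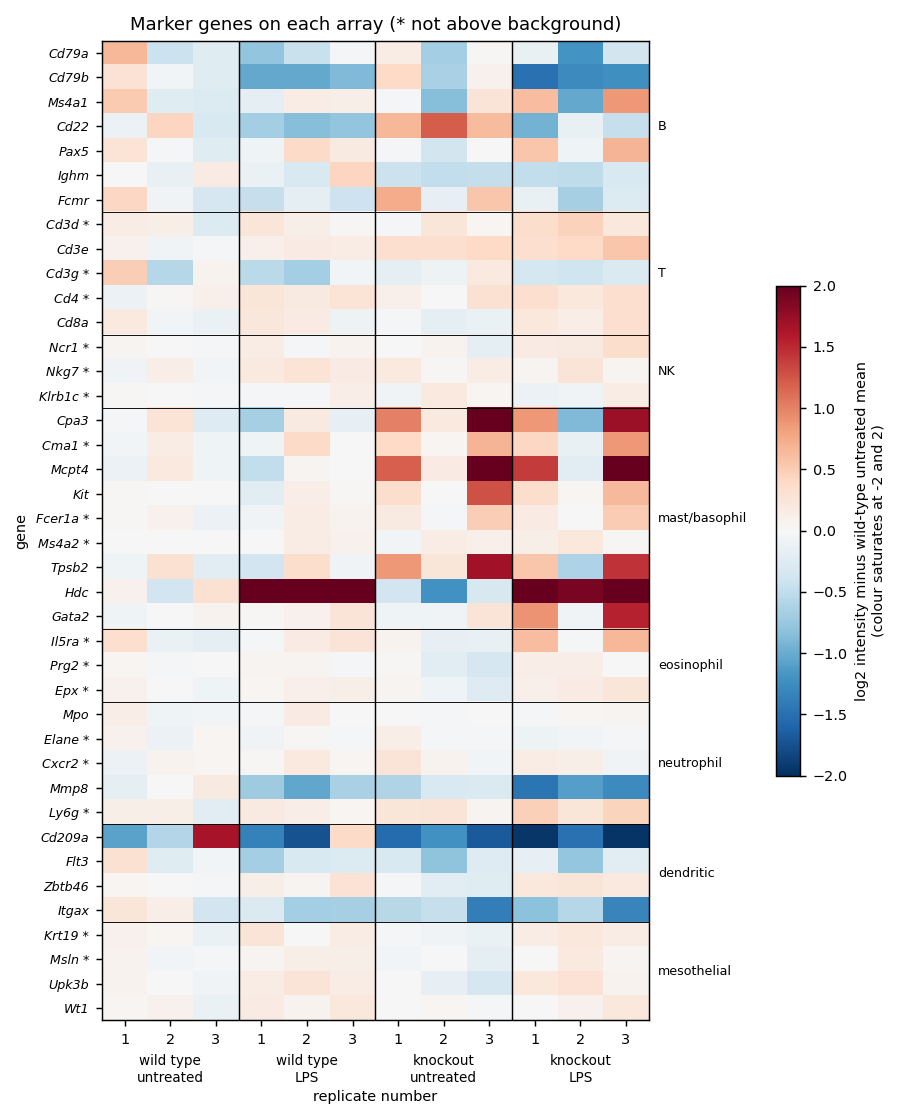
Each row is a marker gene and each column an array, grouped by genotype and treatment with the replicate number beneath. Colour gives log2 intensity minus the mean of the untreated wild-type arrays and saturates at -2 and 2, and an asterisk marks genes not above background in any group. Cpa3, Mcpt4 and Tpsb2 are red on knockout arrays 1 and 3, and Cma1 only faintly so on knockout arrays 1. All of them are near white or blue on knockout arrays 2. Hdc is red on all LPS arrays, and the NK cell, eosinophil and mesothelial rows stay mostly pale.

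Several mast cell genes differed more between knockout arrays of 1 treatment than between the genotypes' means. Cpa3 and Mcpt4, which encode carboxypeptidase A3 and a chymase of connective tissue mast cells, were far brighter on knockout arrays 1 and 3 than on knockout arrays 2, both untreated and with LPS. They carry the pattern, so the 250 bases upstream of their annotated starts are printed beside those of Cma1, which encodes another chymase, in RefSeq build GRCm38.p6, 5′ to 3′ on the minus strand that all 3 genes share. Capitals mark matches on either strand to the GATA motif AGATAA, which GATA2 can bind, and to the TATA box TATAAA; no match of one overlapped a match of the other in these windows.
Cpa3 (chr3:20242182-20242431): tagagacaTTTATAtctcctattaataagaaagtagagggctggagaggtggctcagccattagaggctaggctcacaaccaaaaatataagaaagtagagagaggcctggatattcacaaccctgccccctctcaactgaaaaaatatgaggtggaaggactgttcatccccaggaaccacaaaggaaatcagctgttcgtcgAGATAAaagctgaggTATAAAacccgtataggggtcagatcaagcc
Mcpt4 (chr14:56062311-56062560): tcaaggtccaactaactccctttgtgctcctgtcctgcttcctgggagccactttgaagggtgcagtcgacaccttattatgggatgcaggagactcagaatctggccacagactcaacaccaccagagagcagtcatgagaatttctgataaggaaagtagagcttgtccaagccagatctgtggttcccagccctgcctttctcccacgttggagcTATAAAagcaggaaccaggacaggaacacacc
Cma1 (chr14:55944676-55944925): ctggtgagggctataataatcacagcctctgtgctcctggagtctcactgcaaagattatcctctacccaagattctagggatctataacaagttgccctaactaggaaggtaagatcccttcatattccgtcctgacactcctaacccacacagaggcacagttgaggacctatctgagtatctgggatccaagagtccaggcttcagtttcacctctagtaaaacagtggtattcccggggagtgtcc
Cpa3 held 1 match to AGATAA and 2 to TATAAA, Mcpt4 held 1 to TATAAA, and Cma1 held neither. Only these exact letters were searched on either strand. Other forms of the GATA motif, such as the tgataa in the Mcpt4 window, were not counted. Of all 32851 RefSeq promoter windows, 9.99% held AGATAA and 12.4% TATAAA. A promoter was listed for 31 of the 40 markers and for 8 of the 9 mast cell genes, of which 3 held AGATAA and 3 TATAAA. A match is a description of letters and not a site of binding.

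Cpa3 read 154.3, 189.2 and 131.6 intensity units on the untreated wild-type arrays 1, 2 and 3, and 98.64, 176.7 and 139.9 with LPS. On the knockout arrays it read 313.8, 178.9 and 674.2 untreated and 286.6, 84.77 and 512.8 with LPS. Knockout arrays 1 and 3 lay above every wild-type array, while both knockout arrays numbered 2 lay within or below the wild-type range. Mcpt4 read 92.89, 116.2 and 95.76 on the untreated and 71.72, 105.5 and 100.6 on the LPS wild-type arrays. On knockout arrays it read 230.9, 113.8 and 630.9 untreated and 265.4, 86.2 and 648.4 with LPS, again with arrays 1 and 3 high and arrays 2 in the wild-type range. Tpsb2, encoding a mast cell tryptase, read 254.8, 336.9 and 233.1 untreated and 209, 345.2 and 259 with LPS in wild type, against 494.8, 319.7 and 873.1 and 397.6, 176.2 and 743.3 in knockout. Kit, the receptor for stem cell factor, kept to 120.7 to 153.1 in wild type. In knockout it read 178, 141.5 and 339.4 untreated and 178.6, 143.3 and 220.7 with LPS, so that arrays 1 and 3 again exceeded all wild-type arrays and arrays 2 did not.

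Knockout array 3 exceeded knockout array 2 by 3.77-fold untreated and 6.05-fold with LPS for Cpa3. The same ratios were 5.54 and 7.52 for Mcpt4, 2.73 and 4.22 for Tpsb2, and 2.40 and 1.54 for Kit. Among wild-type arrays of 1 treatment, the brightest exceeded the dimmest by at most 1.79-fold for Cpa3. Of the 9 mast cell and basophil genes, 8 were highest on untreated knockout array 3 and 7 were lowest on untreated knockout array 2. With LPS, 7 were highest on knockout array 3 and 8 were lowest on knockout array 2. Wild-type arrays had an order too, within a narrower range: with LPS, all 9 were lowest on array 1 and 8 were highest on array 2. The receptor genes' higher median on knockout arrays 2 stands beside these values, and its part in them was not tested.

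**Figure D2:**
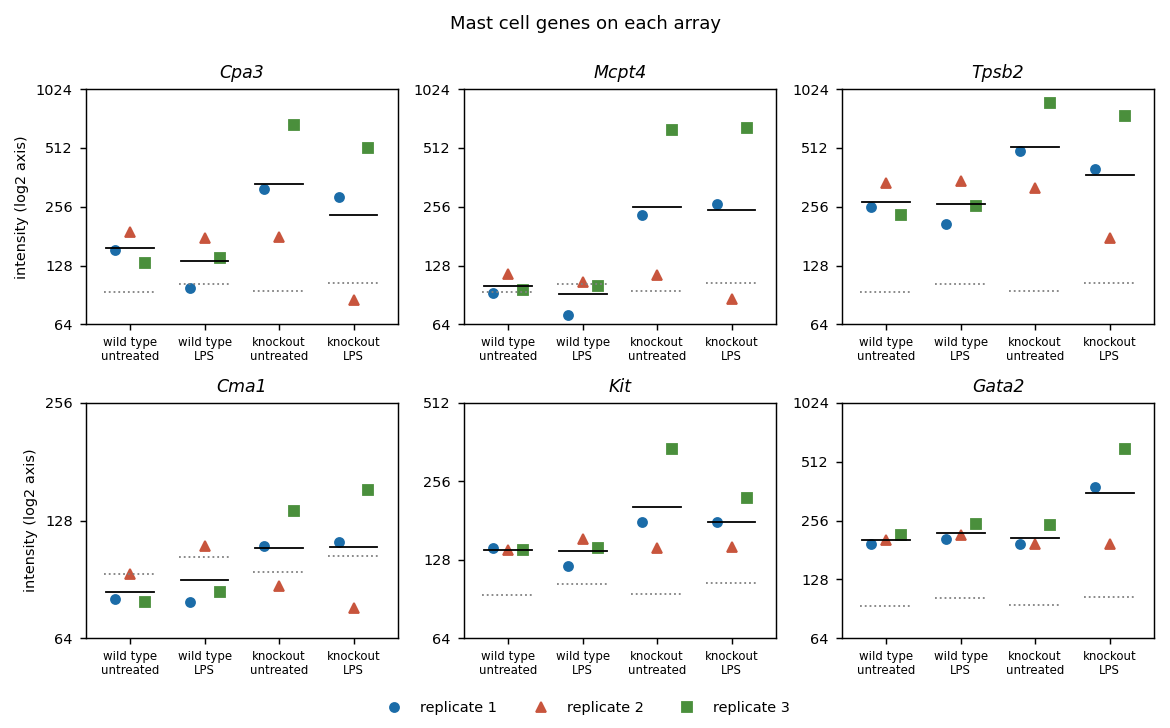
Each panel plots 1 mast cell gene, with intensity on a log2 axis against the 4 groups; symbols are replicates 1, 2 and 3, the black line is the mean of the log2 values and the dotted line the mean background level of the group. Knockout replicates 1 and 3 stand above the wild-type points for Cpa3, Mcpt4 and Tpsb2, and knockout replicates 2 stand among or below them.

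None of the 9 mast cell and basophil genes passed the limma test for knockout against wild type in either treatment (adjusted p under 0.05, over all 19938 genes). Untreated, Mcpt4 was 1.33 higher in knockout on the log2 scale (SE 0.66, 95% interval -0.12 to 2.79, limma adjusted p = 0.606), and Cpa3 was 1.10 higher (SE 0.58, adjusted p = 0.635). With LPS the differences were 1.43 for Mcpt4 (SE 0.66, limma adjusted p = 0.237) and 0.78 for Cpa3 (SE 0.58, adjusted p = 0.516). At an unadjusted limma p under 0.05 there were 0 mast cell genes untreated, against 8.68% of all genes. With LPS there were 2 of the 9, against 22% of all genes. These were Gata2, 0.67 higher in knockout, and Hdc, 1.12 lower. Without both knockout arrays numbered 2, Mcpt4 was 2.18 higher with LPS (SE 0.42, limma adjusted p = 0.0124), Cpa3 1.51 higher (SE 0.35, adjusted p = 0.0278) and Gata2 1.10 higher (SE 0.17, adjusted p = 0.00391). In the untreated comparison Mcpt4 was then 1.92 higher and did not pass (SE 0.42, limma adjusted p = 0.124). Leaving out the brightest array worked the other way: without LPS knockout array 3 the differences with LPS were 0.73 for Mcpt4 (limma adjusted p = 0.603) and 0.21 for Cpa3 (adjusted p = 0.90). Without untreated knockout array 3 the untreated differences were 0.68 (limma adjusted p = 0.783) and 0.60 (adjusted p = 0.797). The size of the genotype difference thus depended on which knockout arrays were kept.

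Gata2, a transcription factor of mast cells and basophils, had its own pattern. It read 193.1, 204.4 and 215.2 in untreated and 206.6, 216.2 and 244.4 in LPS-treated wild-type cells. In knockout cells it read 193.1, 193.4 and 242.8 untreated, against 381.8, 193.5 and 592.2 with LPS. Only knockout arrays 1 and 3 with LPS lay above all the others. The LPS response in knockout was 0.76 on the log2 scale (SE 0.29, limma adjusted p = 0.0534), and it passed at the same size with the number shared by both genotypes as a block (adjusted p = 0.0309) and with a separate block for each genotype and number (SE 0.20, adjusted p = 0.0115). The latter block was added after the data were seen. It follows the pairing of the knockout arrays, where same-numbered untreated and LPS arrays deviated together. Under it Cpa3 (-0.53, limma adjusted p = 0.0376) and Tpsb2 (-0.47, adjusted p = 0.0166) were lower with LPS in knockout, but they did not pass without a block (0.471 and 0.422) or with the block over shared numbers (0.435 and 0.40). Between same-numbered knockout arrays, Cpa3 differed with LPS by -0.13, -1.08 and -0.39 on the log2 scale for arrays 1, 2 and 3. Without both arrays 2 its LPS response in knockout was -0.26 (limma adjusted p = 0.607). The interaction for Gata2, which compares both genotypes' LPS responses, was 0.64 (SE 0.41, limma adjusted p = 0.562).

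Hdc was the marker with the largest difference between groups. It encodes histidine decarboxylase, which makes histamine, and is known to be inducible by LPS in macrophages as well as being high in mast cells and basophils. Its intensities were 380, 274.9 and 442.1 in untreated and 6942, 7875 and 7839 in LPS-treated wild-type cells, with no overlap. In knockout cells they were 275.4, 154.5 and 288.7 untreated and 5848, 1336 and 5327 with LPS, also with no overlap, and with LPS array 2 far below arrays 1 and 3. Hdc rose 21.0-fold with LPS in wild type (4.39 as a log2 difference, SE 0.46, limma adjusted p = 2.71e-05) and 15.0-fold in knockout (3.91, SE 0.46, adjusted p = 4.13e-05). Knockout against wild type with LPS was -1.12 (SE 0.46, limma adjusted p = 0.175), and -0.43 (SE 0.16, adjusted p = 0.141) without both knockout arrays numbered 2. Hdc alone made up most of the summed intensity of the mast cell genes with LPS, 7785 to 9047 in wild type and 2160 to 8269 in knockout, against 1357 to 1415 and 1250 to 3257 untreated.

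The remaining mast cell genes stayed low. The IgE receptor chains Fcer1a and Ms4a2 were not above background in any group, at 26.96 to 41.32 and 28.74 to 34.34 over the 12 arrays. Cma1 exceeded background on some arrays only, at 110.4, 86.84 and 135.3 in untreated and 112.5, 76.3 and 153.3 in LPS-treated knockout cells, against 79.14 to 110 in wild type. Of 7 further mast cell markers measured, Tph1, which encodes the tryptophan hydroxylase of mast cells, showed the same order of knockout arrays. Tph1 read 167.9, 144.4 and 427.4 untreated and 252.5, 107.7 and 557.2 with LPS, against 129.1 to 216.8 in wild type. Mrgprb1, of a receptor family found on mast cells, read 83.21, 58.8 and 131.3 and 75.21, 46.15 and 98.42 in knockout. In wild type it read 38.94 to 58.35. Of all these readings only the one of 131.3 was above background. Tpsab1, the other tryptase gene, did not follow this order: untreated knockout array 2 was its brightest there, at 298.1 against 168.4 and 221.6.

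B cell genes were the only complete lymphoid set above background, and some of them were lower with LPS. Of the 7, limma called Cd79b and Cd22 lower in both genotypes and Fcmr lower in knockout, with none higher. Of all genes, 18.5% were called lower in wild type and 23.8% in knockout. Cd79b, encoding the Igβ signalling chain of the B cell receptor, read 554.9, 437.4 and 380.8 untreated and 222.1, 222 and 245.4 with LPS in wild type. In knockout it read 596.7, 288 and 477.5 untreated and 161.3, 188 and 192.5 with LPS. The untreated and LPS arrays did not overlap in either genotype. Cd79b fell 1.97-fold with LPS in wild type (-0.98 as a log2 difference, SE 0.22, limma adjusted p = 0.00554) and 2.41-fold in knockout (-1.27, SE 0.22, adjusted p = 6.61e-04). Cd22, an inhibitory coreceptor of the B cell receptor, read 277.6, 405.5 and 245.8 untreated and 189.7, 168.4 and 175.3 with LPS in wild type, and 480.5, 703.8 and 466.9 against 157.6, 271.8 and 220.2 in knockout. It too did not overlap, and it fell by 0.77 in wild type (SE 0.23, limma adjusted p = 0.0241) and by 1.36 in knockout (SE 0.23, adjusted p = 5.14e-04). The wild-type call was lost without untreated array 2 (-0.56, limma adjusted p = 0.102), LPS array 2 (-0.73, adjusted p = 0.0731) or LPS array 3 (-0.76, adjusted p = 0.0546), and under quantile scaling (-0.59, adjusted p = 0.11) or 75th-percentile centring of the arrays (-0.58, adjusted p = 0.0547). Unlike the other B cell genes, Cd22 was brightest on untreated knockout array 2.

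Fcmr, the Fc receptor for IgM, read 360.8, 259.4 and 214.1 untreated and 197.4, 237.5 and 202.9 with LPS in wild type, and 451.9, 241.7 and 399.2 against 245.5, 172.2 and 225.6 in knockout. It fell with LPS in knockout (-0.73, SE 0.24, limma adjusted p = 0.0263), a call lost without untreated array 1 (adjusted p = 0.102), untreated array 3 (0.0863) or LPS array 2 (0.0906) and under quantile scaling (0.128) or 75th-percentile centring (0.0837). It differed by -0.36 in wild type (adjusted p = 0.30). The other 4 B cell genes passed in no comparison. Cd79a, the Igα chain, read 611.2, 286.4 and 322.9 untreated and 221, 281.9 and 378.8 with LPS in wild type, and 425.4, 239.3 and 389 against 346, 168.2 and 298.8 in knockout, so that its groups overlapped. Ms4a1, encoding CD20, read 227.2, 133.4 and 130.2 and then 139.5, 175.2 and 171 in wild type. In knockout Ms4a1 read 154.4, 87.34 and 188.9 untreated and 243.6, 77.67 and 288.3 with LPS, where array 3 exceeded array 2 by 3.71-fold. Pax5, the transcription factor that maintains B cell identity, read 166.9, 133.4 and 116.9 and then 130.1, 180.2 and 155.9 in wild type. Pax5 in knockout read 134.7, 106.1 and 138.8 untreated and 202.1, 129.5 and 221.5 with LPS, a difference of 0.52 (limma adjusted p = 0.0587; 0.0669 with the block over shared numbers, and 0.0207 with the block of genotype and number).

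Ighm, the μ heavy chain of IgM, read 211.5, 191.8 and 240 untreated and 194.7, 172.1 and 288.8 with LPS in wild type. All knockout arrays were below these untreated values, at 159.2, 151.2 and 153.9 untreated and 152.6, 150.5 and 172 with LPS. The knockout difference was -0.46 untreated (limma adjusted p = 0.442) and -0.43 with LPS (adjusted p = 0.125). Ighm had other probe sets that were dimmer, at 77.77 to 112.5 and 21.35 to 69.33 over the 12 arrays. By array, 6 of the 7 B cell genes were lowest on untreated knockout array 2 and 5 on LPS knockout array 2, while 5 were highest on untreated wild-type array 1. The summed intensity of the 7 genes was 1651 to 2410 untreated and 1294 to 1618 with LPS in wild type, and 1817 to 2403 against 1158 to 1619 in knockout. Of 8 further B cell markers measured, 2 were lower with LPS in both genotypes (25% of them, against 18.5% of all genes lower in wild type and 23.8% in knockout) and none was higher. They were Bank1, a scaffold protein of B cell receptor signalling (-0.99 in wild type and -1.05 in knockout, limma adjusted p = 0.00978 and 0.00492), and Fcrla, named after its values were seen (-0.88 and -0.70, adjusted p = 0.00815 and 0.0185).

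**Figure D3:**
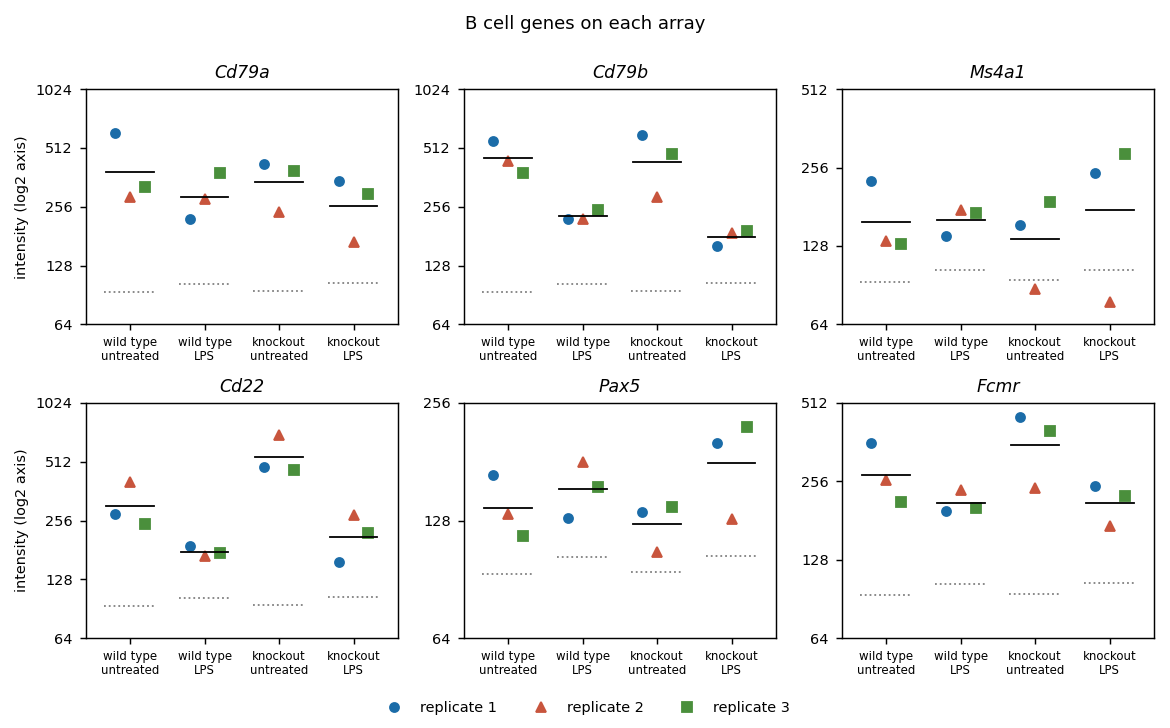
Each panel plots a B cell gene, with intensity on a log2 axis against the 4 groups; symbols are replicates 1, 2 and 3, the black line is the mean of the log2 values and the dotted line the mean background level of the group. Cd79b and Cd22 are lower on every LPS array than on any untreated array of the same genotype, whereas Cd79a, Ms4a1 and Pax5 overlap.

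T cell genes were near background, and NK cell genes below it. Cd3e, encoding the ε chain of the T cell receptor complex, was the 1 T cell gene above background on every array. It read 150, 135.5 and 140.2 untreated and 152.7, 159.4 and 157 with LPS in wild type, against 179, 178.2 and 187.2 and 178.5, 187.2 and 208.9 in knockout. Every knockout array exceeded every wild-type array. Cd3e was 0.36 higher in knockout untreated (SE 0.07, limma adjusted p = 0.142) and 0.29 higher with LPS (SE 0.07, adjusted p = 0.0337), and the latter passed in 7 of 12 fits that each left out 1 array. It was lost without untreated wild-type array 3 (limma adjusted p = 0.0531), LPS wild-type array 1 (0.117) or 3 (0.101), or LPS knockout array 2 (0.0566) or 3 (0.113). Without both knockout arrays numbered 2 its difference with LPS was 0.30 (adjusted p = 0.0596), and in a fit on the LPS arrays alone it was 0.29 (adjusted p = 0.127). The other chains of the complex, Cd3d and Cd3g, and the coreceptor Cd4 were above background in no group, at 40.58 to 67.41, 56.92 to 129 and 70.78 to 97.18. Cd8a, the coreceptor of cytotoxic T cells, read 115, 96.72 and 91.59 untreated and 117.6, 113.1 and 93.69 with LPS in wild type, and 99.47, 88.68 and 92.23 against 116, 110.8 and 127.3 in knockout, close to the background level throughout.

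Of the NK cell genes, Nkg7 read 45.9 to 58.24 and Klrb1c, which encodes NK1.1, 17.27 to 21.43. Ncr1, encoding the activating receptor NKp46, read 32.2, 30.56 and 29.9 and then 34.26, 30.12 and 32.58 in wild type, and 31.04, 32.47 and 27.34 against 34.75, 34.96 and 39.26 in knockout. Among further lymphocyte markers, 1 of 9 for T cells and 2 of 7 for NK cells were higher with LPS in knockout, as were 21.9% of all genes. Among them Klrk1, encoding the receptor NKG2D, differed by 0.57 (SE 0.12, limma adjusted p = 0.00239). Il7r, the interleukin-7 receptor, was the brightest of these at 603.6 to 1488, and passed in no comparison.

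Dendritic cell genes were all above background, and 1 of them set wild-type arrays numbered 3 apart. Cd209a, a C-type lectin of the DC-SIGN family, read 186.7, 261.4 and 1228 untreated and 153.7, 117.6 and 507.9 with LPS in wild type. In knockout it read 134.4, 168.8 and 121.6 untreated and 101.9, 138.4 and 100.5 with LPS. Wild-type arrays 3 were the brightest in both treatments, and untreated wild-type arrays 1 and 2 exceeded every knockout array by less. The untreated knockout difference was -1.48 (SE 0.64, limma adjusted p = 0.552), and -0.66 (SE 0.21, adjusted p = 0.754) without both wild-type arrays numbered 3, an analysis added after the data were seen. Its interaction, 0.58 with all arrays, was -0.24 without untreated wild-type array 3.

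Itgax encodes the integrin chain CD11c, which dendritic cells and many macrophages carry. It read 1594, 1469 and 1036 untreated and 1098, 840.6 and 844 with LPS in wild type, and 918.7, 972.3 and 513.9 against 761.4, 903.3 and 535.7 in knockout. All untreated knockout arrays lay below the untreated wild-type arrays, and knockout arrays 3 were lowest. The untreated difference was -0.80 (SE 0.26, limma adjusted p = 0.423). Flt3, the receptor for the cytokine that drives dendritic cell development, read 165.7, 112.7 and 128.7 and then 83.92, 108.5 and 111.2 in wild type, and 108.1, 76.35 and 111.5 against 119, 78.37 and 115.3 in knockout, with both arrays 2 lowest. Zbtb46, a transcription factor of conventional dendritic cells, read 171.7, 165.5 and 162.3 and then 181.1, 173.5 and 204.2 in wild type. In knockout Zbtb46 read 163.3, 143.2 and 140.9 untreated and 191.7, 197 and 189.7 with LPS without overlap, and rose by 0.37 (SE 0.08, limma adjusted p = 0.00287). Of 7 further dendritic cell markers, 1 passed with LPS in each genotype, against 28.1% of all genes in wild type and 45.7% in knockout. The marker was Clec9a, a receptor for dead cells on cross-presenting dendritic cells. It fell by 2.03 in wild type and by 2.60 in knockout (SE 0.39 in each, limma adjusted p = 0.00196 and 2.35e-04).

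Mmp8, which encodes neutrophil collagenase, was bright on every array while the genes that define neutrophils were dim. Mmp8 read 5458, 6310 and 7084 untreated and 3837, 3033 and 3979 with LPS in wild type, and 4121, 5052 and 5128 against 2268, 2914 and 2575 in knockout. The treatments did not overlap in either genotype. Mmp8 fell by 0.80 with LPS in wild type (SE 0.14, limma adjusted p = 0.00109) and by 0.88 in knockout (SE 0.14, adjusted p = 3.57e-04). Knockout against wild type with LPS was -0.48 (SE 0.14, limma adjusted p = 0.058), and -0.57 (adjusted p = 0.0446) without both knockout arrays numbered 2. Cxcr2, the chemokine receptor of neutrophils, read 20.35 to 26.24, Ly6g, their standard surface marker, 55.73 to 90.75, and Elane, neutrophil elastase, 83.69 to 99.69, with none of them above background in any group. Mpo, myeloperoxidase, lay just above background on all arrays, at 121.9, 104.5 and 106.5 untreated and 108.7, 123.9 and 110.6 with LPS in wild type, and 110.2, 109.4 and 109.9 against 109.5, 113.4 and 114.5 in knockout. Further neutrophil markers were uneven: Csf3r, the G-CSF receptor, read 936.9 to 3603 and Mmp9 619.1 to 1920, against 185.1 to 453.1 for S100a8. Csf3r fell by 0.88 with LPS in wild type and by 1.72 in knockout (SE 0.11 in each, limma adjusted p = 1.06e-04 and 6.41e-07).

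**Figure D4:**
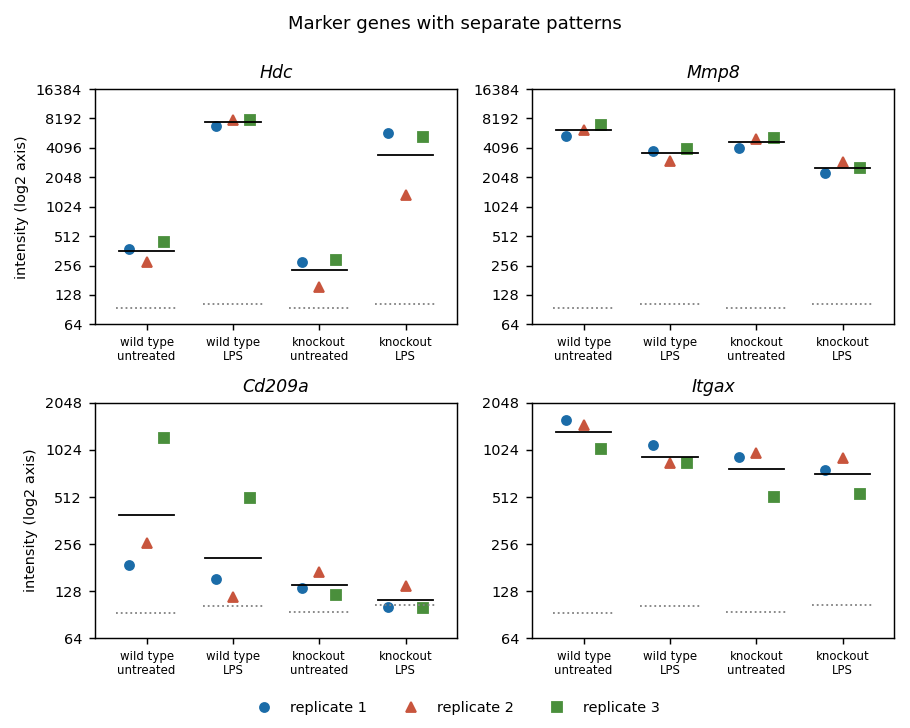
The panels plot Hdc, Mmp8, Cd209a and Itgax, with intensity on a log2 axis against the 4 groups; symbols are replicates 1, 2 and 3, the black line is the mean of the log2 values and the dotted line the mean background level of the group. Hdc is higher and Mmp8 lower on every LPS array than on any untreated array of the same genotype, and the wild-type replicates 3 of Cd209a, at 1228 and 507.9, stand above all other points.

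Eosinophil and mesothelial genes gave little signal. Prg2, the eosinophil major basic protein, read 64.04, 61.35 and 62.45 and then 64.73, 64.9 and 61.25 in wild type, and 63.78, 53.51 and 49.69 against 68.78, 68.87 and 63.11 in knockout. Epx, eosinophil peroxidase, read 45.85, 43.5 and 40.67 and then 44.53, 46.31 and 46.9 in wild type, and 45.08, 40.72 and 36.04 against 46.25, 48.48 and 51.23 in knockout. Il5ra, the interleukin-5 receptor α chain, read 47.32, 34.31 and 32.95 and then 36.93, 42.2 and 45.26 in wild type, and 39.55, 33.8 and 34.14 against 57.84, 36.81 and 59.65 in knockout. All were under the background level, and so was the further eosinophil marker Ccr3, the eotaxin receptor, which fell by 0.47 with LPS in each genotype (limma adjusted p = 9.44e-04 and 6.17e-04).

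Of the mesothelial genes, Wt1, a transcription factor of the mesothelium, read 123.4, 126.7 and 109.4 and then 134.4, 125.5 and 137.8 in wild type, and 120.2, 123.1 and 116.6 against 120.3, 127 and 138.6 in knockout. Upk3b, a uroplakin of mesothelial cells, read 103.6, 99.56 and 94.22 and then 110.1, 118.2 and 110.1 in wild type, and 99.02, 88.82 and 78.35 against 115.1, 121.6 and 104.5 in knockout. Krt19, a keratin, read 86.02, 82.82 and 73.94 and then 96.11, 80.92 and 89.97 in wild type, and 78.36, 76.8 and 73.33 against 89.13, 93.64 and 89.68 in knockout. Msln, mesothelin, was above background in no group, at 83.81 to 108.9. All of these lay near the background level, whose group mean was higher with LPS in both genotypes.

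Counted over the 40 markers, LPS gave 4 calls in wild type by limma, 1 higher (Hdc) and 3 lower (Cd79b, Cd22 and Mmp8), or 10% of the markers. Of all genes 28.1% were called there, 9.53% higher and 18.5% lower. The median log2 difference was 0.06 over the markers and 0.04 over all genes. In knockout 13 markers were called (32.5%), 9 higher and 4 lower, against 45.7% of all genes, 21.9% higher and 23.8% lower, with medians of 0.04 and 0.07. The split moved with the scaling of the arrays. Centring each array on its 75th percentile moved the median of all genes to 0.23 in wild type and 0.35 in knockout, and gave 15 markers higher and 2 lower in wild type and 20 higher and 3 lower in knockout. Centring on the median gave 4 higher and 3 lower in wild type.

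The 4 markers lower in knockout were Cd79b, Cd22, Fcmr and Mmp8. Of the 9 higher ones, Hdc rose by 3.91 and Il5ra by 0.49, and the other 7 by 0.25 to 0.37 on the log2 scale. These were Zbtb46 (0.37), Upk3b (0.36, limma adjusted p = 0.00798), Cd8a (0.34, 0.0258), Prg2 (0.27, 0.0259), Epx (0.27, 0.0273), Ncr1 (0.26, 0.0259) and Krt19 (0.25, 0.0247). Among the 17 markers not above background, 5 were called higher and none lower, against 21.9% higher and 23.8% lower of all genes. None of these 5 was called in wild type. The receptor genes that set the background were also called higher more often than lower. In knockout 72 of 1194 were called higher, a smaller share than among those 17 markers, and 1 lower, with a median difference of 0.08. In wild type 36 receptor genes were called higher and 2 lower, with a median of 0.10. Their part in the small rises was not tested. Under quantile scaling Cd8a, Il5ra, Prg2, Epx, Ncr1 and Krt19 no longer passed (log2 differences of 0.15 to 0.38, limma adjusted p = 0.0641 to 0.171). Without untreated knockout array 3 the count of 13 fell to 7. Hdc, Cd79b, Cd22, Mmp8, Zbtb46 and Upk3b passed whichever array was left out, while Il5ra (limma adjusted p = 0.0478) passed in 2 of 12 such fits. Without both knockout arrays numbered 2 the count was 10, among them Gata2 (1.13) and Pax5 (0.63). Upk3b, Cd8a, Prg2, Epx and Krt19 no longer passed there. With the replicate number shared by both genotypes as a block the count was 14, with all 13 kept. With the added block of genotype and number it was 17, and Epx was not among them.

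**Figure D5:**
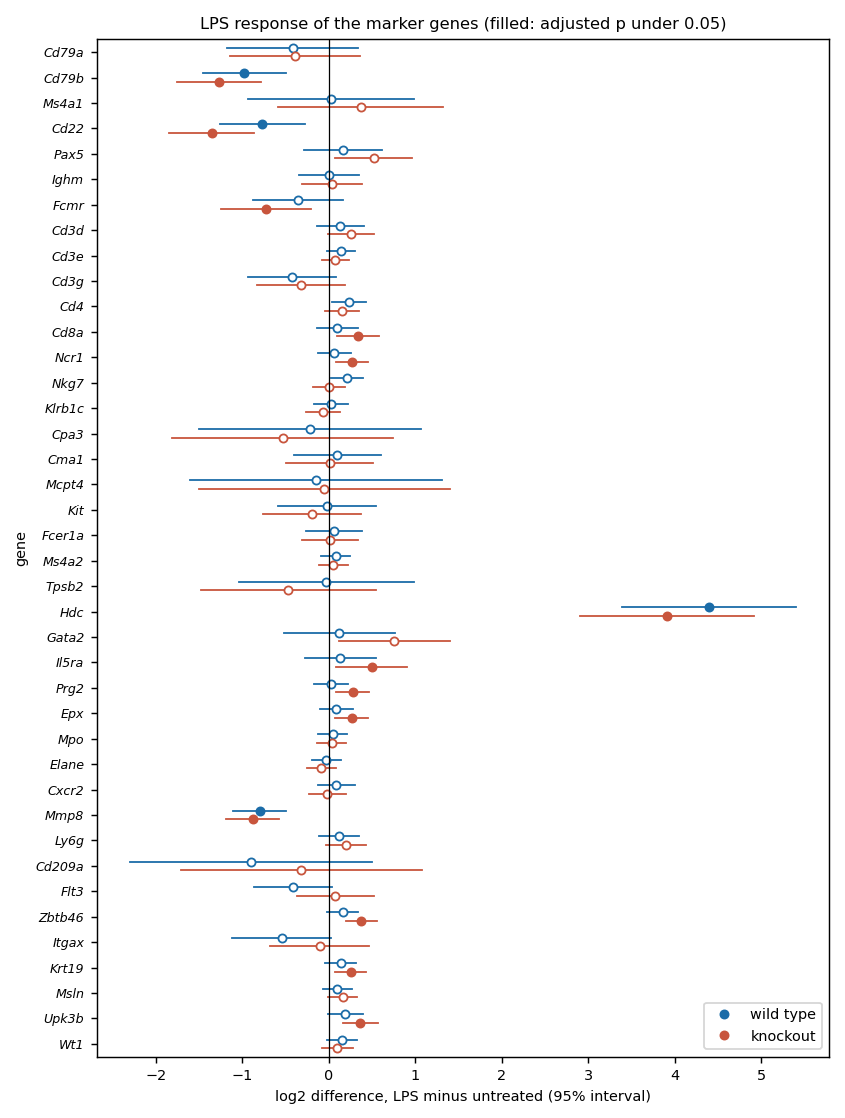
For each marker the point gives the log2 difference between LPS-treated and untreated arrays in wild type and in knockout, with its 95% interval; filled points passed an adjusted p of 0.05. Hdc lies far to the right at 4.39 and 3.91, Cd79b, Cd22 and Mmp8 lie to the left in both genotypes, and most other markers sit near 0.

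Between genotypes, limma called none of the 40 markers in untreated cells, with 7 (17.5%) at an unadjusted p under 0.05 against 8.68% of all genes. By adjusted p 0.0752% of all genes were called (0.0351% higher and 0.0401% lower). Those 7 were Cd3e and Cd22, higher in knockout, and Ighm, Mmp8, Itgax, Flt3 and Cd209a, lower in knockout. With LPS the 1 call was Cd3e, against 8.14% of all genes (3.28% higher and 4.87% lower), and 6 markers (15%) had an unadjusted p under 0.05, against 22% of all genes. The medians over markers and over all genes were -0.02 and -0.03 untreated, and 0.06 and -0.01 with LPS. The count with LPS was 0 without untreated wild-type array 3, LPS wild-type array 1 or 3, or LPS knockout array 3, 3 without LPS wild-type array 2 or LPS knockout array 2, and 4 without both knockout arrays numbered 2. For the interaction limma called no marker by adjusted p, against 0.747% of all genes (0.301% higher and 0.446% lower). No marker had an unadjusted p under 0.05 there either. The intervals of the interaction were wide, for Hdc -1.91 to 0.94 around -0.48 and for Cd22 -1.29 to 0.11 around -0.59. The comparisons share groups of arrays and are not independent of each other.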

How the data were processed

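The deposited values were intensity on a linear scale. Per the submitters' processing notes, the authors used RMA and Affymetrix Expression Console 1.1. RMA usually includes quantile normalization, which hides a shift of most transcripts one way. Of 35556 probe sets, 21789 had 1 symbol in the platform annotation, 1621 several and 12146 none. The brightest probe set per gene was kept, for 19938 genes.

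Here the deposited intensity was put on the log2 scale with no pseudocount, and 4 group means over 12 arrays were fitted in R 4.3.3 with limma 3.58.1 (lmFit, eBayes, two-sided). P-values were Benjamini-Hochberg adjusted over all 19938 genes, with calls under 0.05, for 5 contrasts. The script was tested on simulated data. The number of arrays limits the precision. No pair of arrays held identical values. Setting markers against the receptor genes' level compares probe sets and is a description only.

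The markers and lists were chosen with earlier results of these data known. Every marker above background in a group or called in a contrast is given by array, except Kit in wild type. The others are given by range. Of further markers at most 4 a class are named, those with the highest mean intensity, and exceptions are marked. Csf3r and Mertk are among the further genes. Of 63 further markers of the same cells, 59 were measured.

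Deviations of same-numbered untreated and LPS arrays from their group means correlated at 0.32, 0.57 and 0.46 in knockout, each best with its own number, and at -0.07, 0.14 and 0.36 in wild type, so the numbers were taken to pair the knockout arrays only. Alternatives were median, 75th-percentile and quantile scaling, other background levels and filters, array weights, a replicate block, single contrasts fitted alone, a stricter threshold and each array left out.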

Additional observations from a re-analysis of the deposited data

Results flagged for a closer look

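Beside the 40 markers, 83 further marker and macrophage genes were measured. The LPS response of a pair of them differed between the genotypes by the test of the interaction itself. Of all genes, 0.747% were called for the interaction. Mertk, a receptor with which macrophages take up dying cells, read 2786, 2792 and 3038 untreated and 1511, 2088 and 1780 with LPS in wild type, and 2752, 2791 and 3185 against 4046, 4704 and 4302 in knockout. Its response was 1.27 higher in knockout (SE 0.16, limma adjusted p = 0.0053) and passed in 12 of 12 fits that each left out 1 array. Csf3r, the G-CSF receptor, read 3150, 3167 and 2830 untreated and 1675, 1921 and 1417 with LPS in wild type, and 3381, 3237 and 3603 against 936.9, 1043 and 1125 in knockout. Its response differed by -0.85 (SE 0.16, limma adjusted p = 0.0361), which passed in 3 of 12 such fits, with adjusted p up to 0.11.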

How the results depend on the processing

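Of the counts of markers, 117 stayed within 1.5 times the main count and 22 did not. The 117 include the untreated genotype comparison and the interaction, where no setting called any marker. They also include fits that left out an array outside the comparison, which leaves the difference itself unchanged. For LPS in wild type (4), median centring gave 7, 75th-percentile centring 17 and array weights 13, and leaving out 1 array gave 3 to 5. For LPS in knockout (13), 75th-percentile centring gave 23, a fit on these 6 arrays alone 8, an adjusted p under 0.01 gave 6, and leaving out 1 array gave 7 to 13. For knockout against wild type with LPS (1), array weights gave 6, and quantile scaling, testing only genes above background and the replicate block over shared numbers gave 2 each. In that comparison the 6 arrays alone, an adjusted p under 0.01 and leaving out both wild-type arrays numbered 3 gave 0, leaving out both knockout arrays numbered 2 gave 4, and leaving out 1 array gave 0 to 3. Fewer arrays or genes enter some of these fits; otherwise the cause was not tested. A 99th-percentile background left 14 markers above it, where the 95th left 23.

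For single genes, 819 settings kept direction and side of the threshold, 64 lost it, 29 gained it and 2 reversed: Cpa3 in the knockout LPS response (-1.11 to 0.19 over fits that left out 1 array, the latter without knockout LPS array 2, a fit that leaves its paired untreated array in; -0.26 without the pair) and Cd209a in the interaction (-0.24 to 1.22, the former without untreated wild-type array 3). That tally covers only markers and comparisons that were called or had a large log2 difference in the main fit. Smaller differences outside it could also change sign when 1 array was left out. Among these were Tpsb2 in the knockout LPS response (-0.97 to 0.07) and Hdc in the interaction (-0.86 to 0.20). The replicate block over shared numbers gave 5, 14, 0, 2 and 0 calls over the 5 contrasts. Within wild type, where the numbers were not taken to pair the arrays, a block of genotype and number, added after the data were seen, gave 6 LPS calls. It changed no call of the interaction. Leaving out both wild-type arrays numbered 3 gave 4 LPS calls in wild type and 12 in knockout. Markers near the background level allow only small differences to be read.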

Other observations

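Genes of other cells that a peritoneal flush can hold were measured beside the 40 markers. Of 5 fibroblast genes measured, 4 were above background in a group and 1 passed between genotypes: Dcn, encoding the matrix proteoglycan decorin, was 0.93 lower in knockout with LPS (log2 difference -0.93, SE 0.20, limma adjusted p = 0.0165), where 8.14% of all genes were called. Of 3 platelet and 2 erythroid genes, 1 passed: Alas2, the erythroid enzyme of haem synthesis, differed by 0.20 with LPS in knockout (SE 0.08, limma adjusted p = 0.0462), in 2 of 12 fits that left out 1 array, where 45.7% of all genes were called.

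The macrophages moved as well. Of 6 genes measured for large peritoneal macrophages, 1 was called higher and 2 lower with LPS in each genotype. Of all genes, 9.53% were called higher and 18.5% lower in wild type, and 21.9% higher and 23.8% lower in knockout. The median log2 difference of the 6 genes was 0.29 in wild type and -0.27 in knockout. Cd93, a surface glycoprotein, fell by 2.03 with LPS in wild type and by 1.98 in knockout (SE 0.19 in each, limma adjusted p = 1.09e-05 and 8.24e-06). Csf1r fell by 0.69 in wild type and by 0.68 in knockout (SE 0.08 in each), while Cd14, the LPS coreceptor, rose by 0.55 and 0.39 (SE 0.11 in each, limma adjusted p = 0.00269 and 0.0132). Ccr7, a chemokine receptor of mature dendritic cells, read 2095 to 4202 over the 6 wild-type arrays and 494.9 to 2580 over the 6 knockout arrays, with the lowest values on both knockout arrays numbered 2; its differences of -1.56 untreated and -1.42 with LPS did not pass (limma adjusted p = 0.416 and 0.113), nor did those of -1.24 and -0.70 without these arrays (adjusted p = 0.06 and 0.0971).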
